A study of Homo sapiens with 3 samples.

Results

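The genes described here encode hepatocyte growth factor (HGF), its receptor tyrosine kinase MET, the membrane serine protease matriptase (ST14), the Kunitz-type protease inhibitors SPINT1 and SPINT2, and the docking adaptor GAB1. They were chosen by name, as all probe sets annotated with 1 of these 6 symbols and no other. This gave 22 of 54613 probe sets, and 6 of 19775 named genes. HGF had 5 probe sets, MET 4, ST14 3, SPINT1 2, SPINT2 1 and GAB1 7.

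The study measured messenger RNA in KMS11, an established human myeloma cell line with the t(4;14) translocation, which brings MMSET, now named NSD2, which encodes a histone methyltransferase, under the control of immunoglobulin enhancers. All cells were infected with lentivirus in polybrene and collected at 48 h. There were 3 arrays, namely 1 for the hairpin shMMSET#2 and 1 for the hairpin shMMSET#4, both directed at MMSET, and 1 for the control hairpin shLuc, directed at luciferase. The title of the series asks which transcription factors needed by such myeloma cells depend on MMSET. No group had a replicate, so no difference has a replicate check, and every "lower" or "higher" is a statement about 3 single arrays, whose number limits the precision. Spread could be judged only from how far the hairpin arrays lay from each other, and real differences between the hairpins add to it.

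HGF is secreted as an inactive single chain. Serine proteases at the cell surface or in plasma, among them matriptase, hepsin and HGF activator, cut it into the form that switches on MET, and the inhibitors encoded by SPINT1 and SPINT2 block these proteases. Once phosphorylated, MET recruits GAB1 and through it the RAS-ERK and PI3-kinase pathways. HGF also binds heparan sulphate on syndecan-1, an abundant proteoglycan of plasma cells, and myeloma cells are a known source of HGF.

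The RefSeq table used here held a promoter window for HGF and for MET, and these are shown to set the ligand gene, whose signal differed most among the 6 genes, beside its receptor gene. Each window runs from 250 bases before to 50 bases after the annotated start of the gene, 5′ to 3′ on the gene's strand, and capitals mark CpG dinucleotides. The HGF window is chr7:81769998-81770297 on the minus strand and the MET window is chr7:116671946-116672245 on the plus strand, both in GRCh38.p14.
HGF: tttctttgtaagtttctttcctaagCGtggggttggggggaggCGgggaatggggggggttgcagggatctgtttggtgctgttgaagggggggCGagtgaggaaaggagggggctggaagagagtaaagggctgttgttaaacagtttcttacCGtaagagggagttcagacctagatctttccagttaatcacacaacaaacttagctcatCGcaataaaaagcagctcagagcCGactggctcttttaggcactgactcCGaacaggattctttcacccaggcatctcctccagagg
MET: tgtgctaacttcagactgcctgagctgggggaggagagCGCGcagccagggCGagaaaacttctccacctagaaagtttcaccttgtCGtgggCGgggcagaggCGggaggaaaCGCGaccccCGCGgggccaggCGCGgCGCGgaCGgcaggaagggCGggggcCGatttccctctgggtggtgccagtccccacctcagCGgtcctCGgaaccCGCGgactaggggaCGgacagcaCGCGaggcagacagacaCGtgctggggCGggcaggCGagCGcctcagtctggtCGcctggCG
The HGF window had 51.0% G and C and 7 CpG dinucleotides, whereas the MET window had 69.3% G and C and 30. The median of 35116 windows of this length was 58.7% and 14 CpG dinucleotides. On both strands 7 motifs were searched by their letters: the TATA box (TATAAA), the CCAAT box (CCAAT), the GC box (GGGCGG), the E-box (CACGTG), the AP-1 site (TGANTCA), the STAT site (TTCNNNGAA) and the core of the MAF site (TGCTGA). None of these letters occurred in the HGF window. The MET window held 3 GC boxes, whose first bases lay at -160, -95 and 12 relative to the annotated start, and 1 E-box at 3, with no overlap between motifs. GC boxes occurred in 45.0% of all windows and the E-box in 7.26%. A match is a description of the letters and not evidence of a site.

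The values are MAS5 signals, which are linear brightness values per probe set. Signals under a floor of 41.2 were set to it before log2 ratios were taken, so where 1 of the 2 signals was at the floor the fold is given as "at least". Probe sets brighter than the median of any 1 array were tested, and each was called by size at 2-fold. The arrays differed in more than the hairpin. The median signal was 62.0 with shMMSET#2, 59.5 with shMMSET#4 and 77.4 with shLuc, and the log2 excess of the 3′ over the 5′ ACTB control was 1.14, 1.14 and 1.70 in the same order. The part of RNA quality in the results was not tested. The targeted gene NSD2 was lower than with shLuc on 6 of 6 probe sets with shMMSET#2 (median log2 ratio -1.33) and on 5 of 6 with shMMSET#4 (median log2 ratio -0.48). All 9 plasma cell markers, such as SDC1, TNFRSF17 and JCHAIN, were above the floor on all 3 arrays, whereas 3 of 8 fibroblast markers (COL1A1, THY1 and FBN1) and 1 of 4 monocyte markers (ITGAM) were, and COL3A1, PDGFRB and CD14 were above it on none.

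HGF was far lower with shMMSET#2 than on the other arrays, and this held on every HGF probe set. On the brightest one, 209960_at, the signal was 522 with shMMSET#2, 4848 with shMMSET#4 and 8905 with shLuc. The shMMSET#2 array stood apart from the other two, at 17.0-fold lower than shLuc and 9.28-fold lower than shMMSET#4. Of 31527 tested probe sets, 2 (this one included) had a log2 ratio of shMMSET#2 over shLuc as low as its -4.09. In cell populations of this kind, less HGF RNA per cell and fewer cells that express it cannot be told apart.

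The 4 dimmer HGF probe sets agreed on shMMSET#2 and split on shMMSET#4. Probe set 210755_at had signals of 97.6 with shMMSET#2, 651 with shMMSET#4 and 1053 with shLuc. Probe set 209961_s_at had 125 with shMMSET#2, 454 with shMMSET#4 and 642 with shLuc. These 2 ranked the arrays as the brightest probe set did, lowest with shMMSET#2 and highest with shLuc, and were 10.8-fold and 5.14-fold lower than shLuc with shMMSET#2. On the other pair, designed on a single shared sequence record, shMMSET#4 was instead the highest array. Probe set 210997_at had signals of 73.6 with shMMSET#2, 907 with shMMSET#4 and 483 with shLuc. Probe set 210998_s_at had 20.9 with shMMSET#2, which is under the floor, 422 with shMMSET#4 and 357 with shLuc. With shMMSET#2 they were 6.57-fold and at least 8.66-fold lower than shLuc.

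Over the 5 HGF probe sets, the log2 ratio of shMMSET#2 over shLuc ran from -4.09 to -2.36, with a median of -3.11 (SD 0.67 over 5 probe sets of the same RNA, which are not replicates). The log2 ratio of shMMSET#4 over shLuc ran from -0.88 to 0.91, with a median of -0.50 (SD 0.74), and 3 of the 5 were negative. At the deposited scaling none of the 5 reached 2-fold with shMMSET#4. The 2 hairpins thus gave different HGF values: shMMSET#2 was lower than shMMSET#4 by 3.63-fold to 12.3-fold on the 5 probe sets. In the signal deciles that hold these probe sets, 95% of tested probe sets lay within 2.02-fold to 2.36-fold between the hairpin arrays. All 5 HGF probe sets were outside that range. NSD2 itself was also lower with shMMSET#2 than with shMMSET#4 on its 6 probe sets, but by unlike amounts. The gap was smallest, 1.06-fold, on the brightest, 209054_s_at, with 7032 with shMMSET#2, 7476 with shMMSET#4 and 10300 with shLuc. It was largest, 3.76-fold, on 222778_s_at, with 335 with shMMSET#2, 1260 with shMMSET#4 and 2165 with shLuc. The summed signal of the plasma cell markers was 71755 with shMMSET#2, 100625 with shMMSET#4 and 113375 with shLuc, and that of the fibroblast markers, a cell type that also makes HGF, was 583, 473 and 672 in the same order. JCHAIN was the largest term of the plasma cell sum, with 40928 with shMMSET#2, 39387 with shMMSET#4 and 55012 with shLuc. TNFRSF17 (11771, 21560 and 18258 in the same order) and XBP1 (8577, 14115 and 16087) were lowest with shMMSET#2, whereas CD38 (129, 151 and 94.4) was lowest with shLuc. Against shLuc, SLAMF7 and IRF4 were 5.85-fold and 2.86-fold lower with shMMSET#2, and MZB1 was 3.53-fold higher with shMMSET#4. The fibroblast markers ran opposite ways: COL1A1 had 322 with shMMSET#2, 180 with shMMSET#4 and 197 with shLuc, whereas FBN1 (74.5, 138 and 151 in the same order) and THY1 (43.6, 63.7 and 81.7) were lowest with shMMSET#2. The part of NSD2 silencing depth or of these markers in the HGF difference was not tested.

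**Figure D1:**
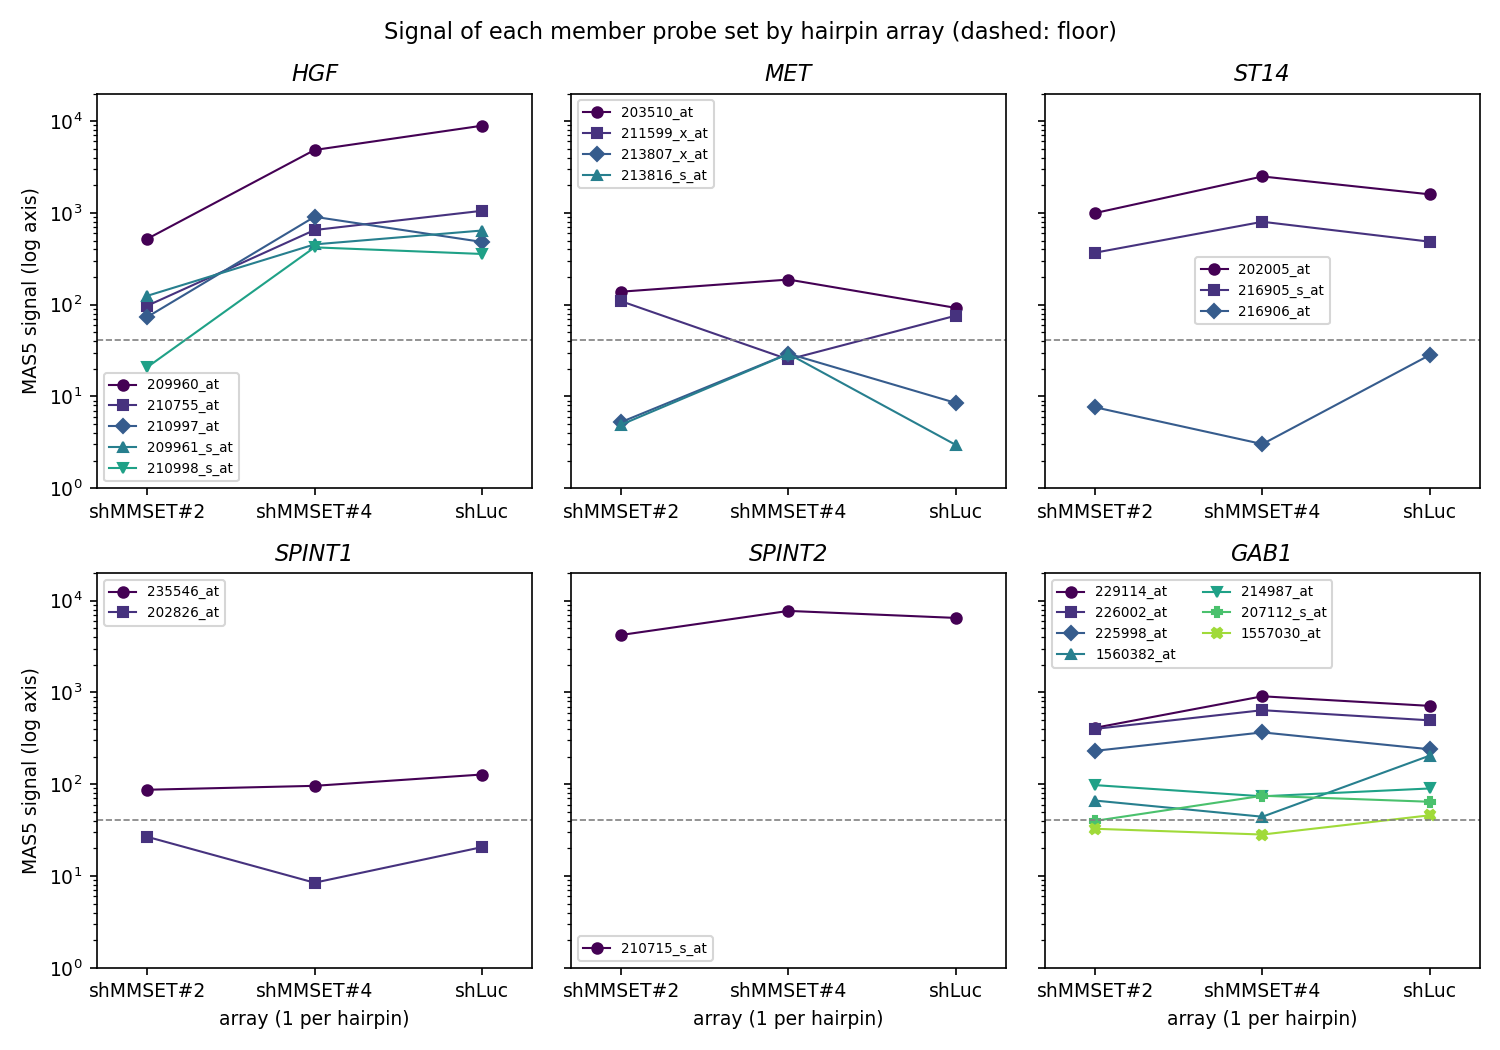
MAS5 signal of each of the 22 probe sets (log axis, 1 panel per gene) on the shMMSET#2, shMMSET#4 and shLuc arrays, with 1 array per group and the floor of 41.2 as a dashed line. All 5 HGF probe sets are lowest with shMMSET#2, for example 522, 4848 and 8905 on the brightest, while no MET or SPINT1 signal is above 188.

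MET, the receptor, was dim on every array. The brightest probe set, 203510_at, had signals of 139 with shMMSET#2, 188 with shMMSET#4 and 92.4 with shLuc. The shLuc array was the lowest of the 3, and the log2 ratios over shLuc were 0.59 with shMMSET#2 and 1.02 with shMMSET#4 (2.03-fold higher). Between the hairpins it was 1.36-fold lower with shMMSET#2 than with shMMSET#4, inside the 2.66-fold that held 95% of its decile. That range was measured between the hairpin arrays, and none was taken for ratios over shLuc. The 2.03-fold over shLuc is smaller than it but is another comparison. The probe set 211599_x_at, of a type that can hybridise to related transcripts, ran otherwise, with 109 with shMMSET#2, 25.3 with shMMSET#4 and 75.9 with shLuc. Between the hairpins it was at least 2.64-fold higher with shMMSET#2 than with shMMSET#4, just outside the 2.56-fold of its decile. It passed the filter through the shMMSET#2 array alone, so it was bound to be higher there. The remaining MET probe sets, 213807_x_at and 213816_s_at, lay under the floor on all 3 arrays, with highest signals of 29.3 and 29.1. No log2 ratio can be read from them.

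ST14, which encodes matriptase, was lower with shMMSET#2 and higher with shMMSET#4 than with shLuc, below 2-fold on each side. Probe set 202005_at had signals of 998 with shMMSET#2, 2495 with shMMSET#4 and 1594 with shLuc. Probe set 216905_s_at had 369 with shMMSET#2, 801 with shMMSET#4 and 486 with shLuc. Both thus ranked the arrays alike, with shMMSET#2 lowest and shMMSET#4 highest. Their log2 ratios over shLuc were -0.68 and -0.40 with shMMSET#2, and 0.65 and 0.72 with shMMSET#4. Between the hairpins shMMSET#2 was 2.50-fold lower than shMMSET#4 on 202005_at, outside the 2.02-fold that held 95% of its decile, and 2.17-fold lower on 216905_s_at, inside the 2.26-fold of its decile. The third ST14 probe set, 216906_at, was under the floor on all 3 arrays, with signals of 7.62 with shMMSET#2, 3.03 with shMMSET#4 and 28.2 with shLuc.

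Matriptase is best known from epithelia, and markers of that tissue were measured for this reason. Of 7 epithelial genes, EPCAM, KRT8, KRT18 and CDH1 were above the floor on all 3 arrays and KRT19 on none. Their summed signal was 4827 with shMMSET#2, 11629 with shMMSET#4 and 9143 with shLuc, the same order of arrays as for ST14. Most of it came from EPCAM, an epithelial adhesion molecule, with 4391 with shMMSET#2, 10651 with shMMSET#4 and 8099 with shLuc. KRT18 ranked the arrays in that order too (248, 350 and 327 with shMMSET#2, shMMSET#4 and shLuc), but CDH1 (50.04, 340 and 595) was highest with shLuc and KRT8 (118, 144 and 99.8) was lowest with shLuc. The part of other cells in the ST14 values was not tested.

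The protease inhibitors did not reach 2-fold. SPINT2, whose product inhibits matriptase, hepsin and HGF activator, had 1 probe set, 210715_s_at, with signals of 4237 with shMMSET#2, 7743 with shMMSET#4 and 6496 with shLuc. It ranked the arrays as ST14 did. Its log2 ratios over shLuc were -0.62 with shMMSET#2 and 0.25 with shMMSET#4, and shMMSET#2 was 1.83-fold lower than shMMSET#4, just past the 1.82-fold that held 95% of its decile. SPINT1, whose product is the main partner of matriptase in epithelia, was dim. Its probe set 235546_at had signals of 87.2 with shMMSET#2, 96.1 with shMMSET#4 and 128 with shLuc, which gave log2 ratios of -0.55 and -0.41 over shLuc. The other SPINT1 probe set, 202826_at, lay under the floor on all 3 arrays, with 26.7 with shMMSET#2, 8.46 with shMMSET#4 and 20.6 with shLuc.

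At the deposited scaling GAB1, the adaptor that couples MET to ERK and PI3-kinase signalling, was below shLuc on 6 of its 7 probe sets with shMMSET#2. With shMMSET#4 the 7 were split, with 3 below shLuc and 4 above it. The 6 did not all hold with the arrays scaled to the same median signal. There the log2 ratios with shMMSET#2 were 0.01 on 226002_at, 0.26 on 225998_at and 0 on 1557030_at. The brightest, 229114_at, had signals of 413 with shMMSET#2, 909 with shMMSET#4 and 715 with shLuc. Probe set 226002_at had 401 with shMMSET#2, 641 with shMMSET#4 and 498 with shLuc, and probe set 225998_at had 231 with shMMSET#2, 368 with shMMSET#4 and 241 with shLuc. These 3 were lowest with shMMSET#2 and highest with shMMSET#4, as for ST14 and SPINT2, and none reached 2-fold against shLuc. One dimmer probe set, 1560382_at, differed by more and in another way, with signals of 66.4 with shMMSET#2, 44.3 with shMMSET#4 and 205 with shLuc. Against shLuc this is 3.08-fold less with shMMSET#2 and 4.63-fold less with shMMSET#4. It was the only member probe set past 2-fold in the same direction with both hairpins. The brighter GAB1 probe sets did not share this difference. The other GAB1 probe sets were dim too. Probe set 214987_at had 97.9 with shMMSET#2, 73.9 with shMMSET#4 and 90.0 with shLuc. In the same order 207112_s_at had 39.96, 74.99 and 64.5, and 1557030_at, which was not tested, had 32.7, 28.3 and 45.9.

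In all, 17 of the 22 probe sets were tested, and the 5 left out were 2 of MET and 1 each of ST14, SPINT1 and GAB1. With shMMSET#2, 6 of the 17 were at least 2-fold lower than shLuc, against a background of 11.9% of all 31527 tested probe sets, and none was at least 2-fold higher, against 5.66%. The 6 were the 5 HGF probe sets and 1560382_at of GAB1. With shMMSET#4, 1 of the 17 was at least 2-fold lower, against 13.4%, and 1 was at least 2-fold higher, against 5.58%. With both hairpins, 1 was lower, against 5.94%, and none was higher, against 2.41%. Apart from HGF, the member counts with either hairpin are therefore near the background. The hairpin comparisons share the shLuc array. Probe sets that passed the filter through 1 bright array were bound to differ, so these counts describe the 17 and not all 22.

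The median log2 ratio of the 17 was -0.65 with shMMSET#2 and 0.24 with shMMSET#4, beside -0.09 and -0.12 for all tested probe sets. Scaling the arrays to the same median signal moves the medians of all tested probe sets to 0.20 and 0.23, and turns 3739 lower and 1783 higher probe sets with shMMSET#2 into 1780 lower and 3613 higher. Under that scaling HGF was still far below shLuc with shMMSET#2, at a log2 ratio of -3.77 on 209960_at. With shMMSET#4, HGF 210997_at passed 2-fold higher, at 1.29. Both ST14 probe sets did so too, at 1.03 on 202005_at and 1.10 on 216905_s_at. Of all tested probe sets, 12.6% were at least 2-fold higher with shMMSET#4 under that scaling. Set directly against shMMSET#4, 8 of the 17 were at least 2-fold lower with shMMSET#2, against 5.39%, and 1, the MET probe set 211599_x_at, was at least 2.64-fold higher, against 5.25% past 2-fold. The direction of that MET probe set was fixed by the filter, which it passed through shMMSET#2 alone. The 8 were the 5 of HGF, the 2 of ST14 and 229114_at of GAB1. This comparison does not use the shLuc array.

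**Figure D2:**
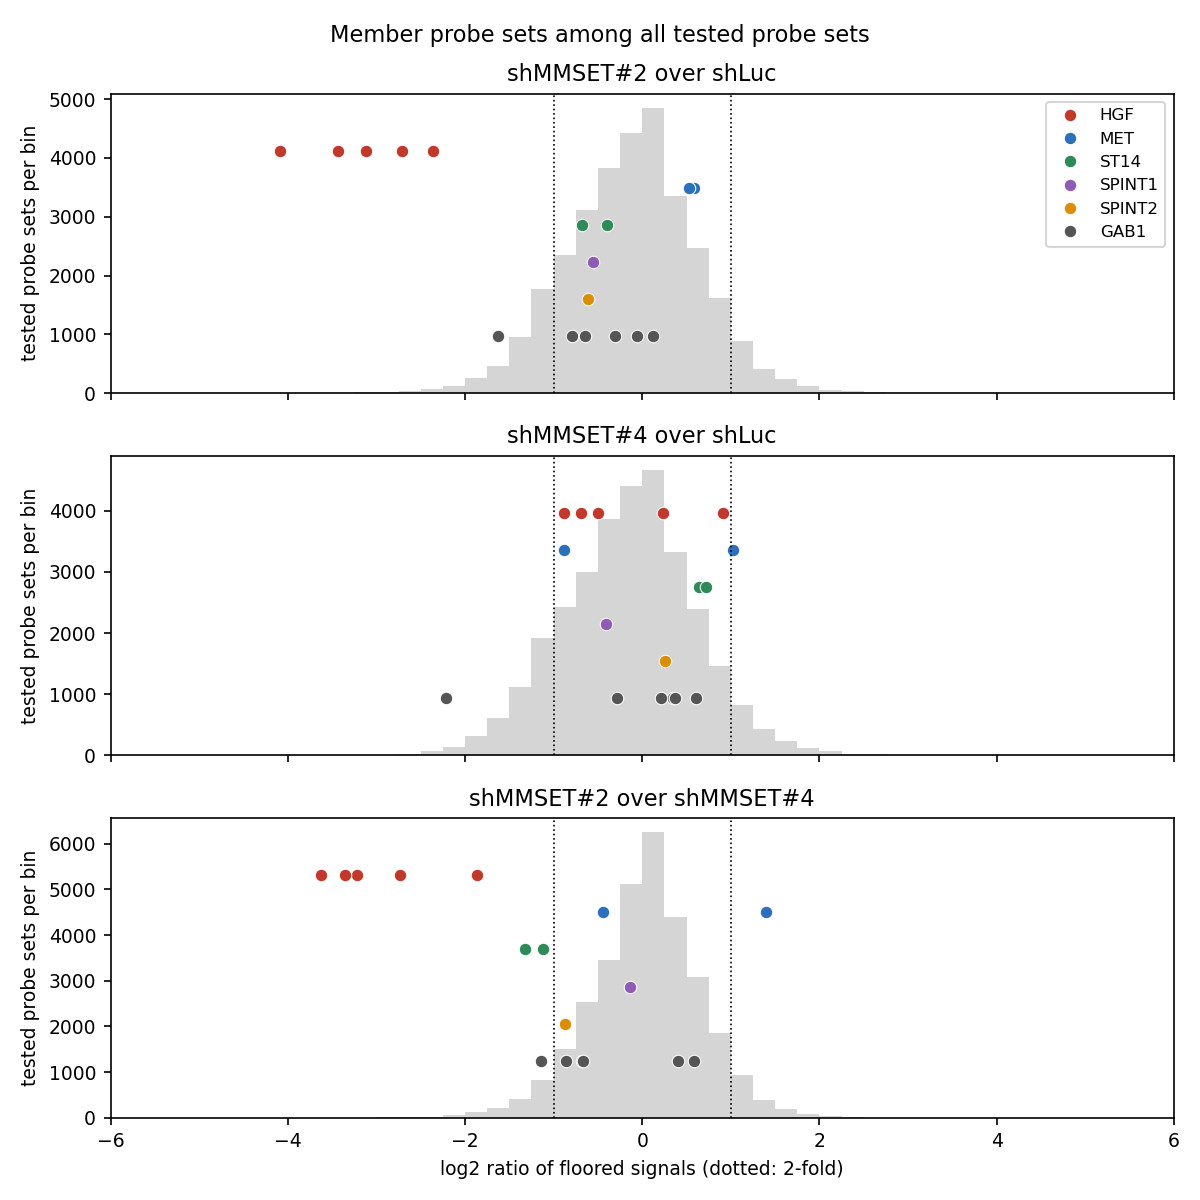
Log2 ratios of the 17 tested member probe sets (coloured points, 1 row per gene, the height without meaning) over the counts of all 31527 tested probe sets in bins (grey bars), for shMMSET#2 over shLuc, shMMSET#4 over shLuc and shMMSET#2 over shMMSET#4. The HGF points lie at -4.09 to -2.36 with shMMSET#2 and at -0.88 to 0.91 with shMMSET#4, and the dotted lines mark 2-fold.

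**Figure D3:**
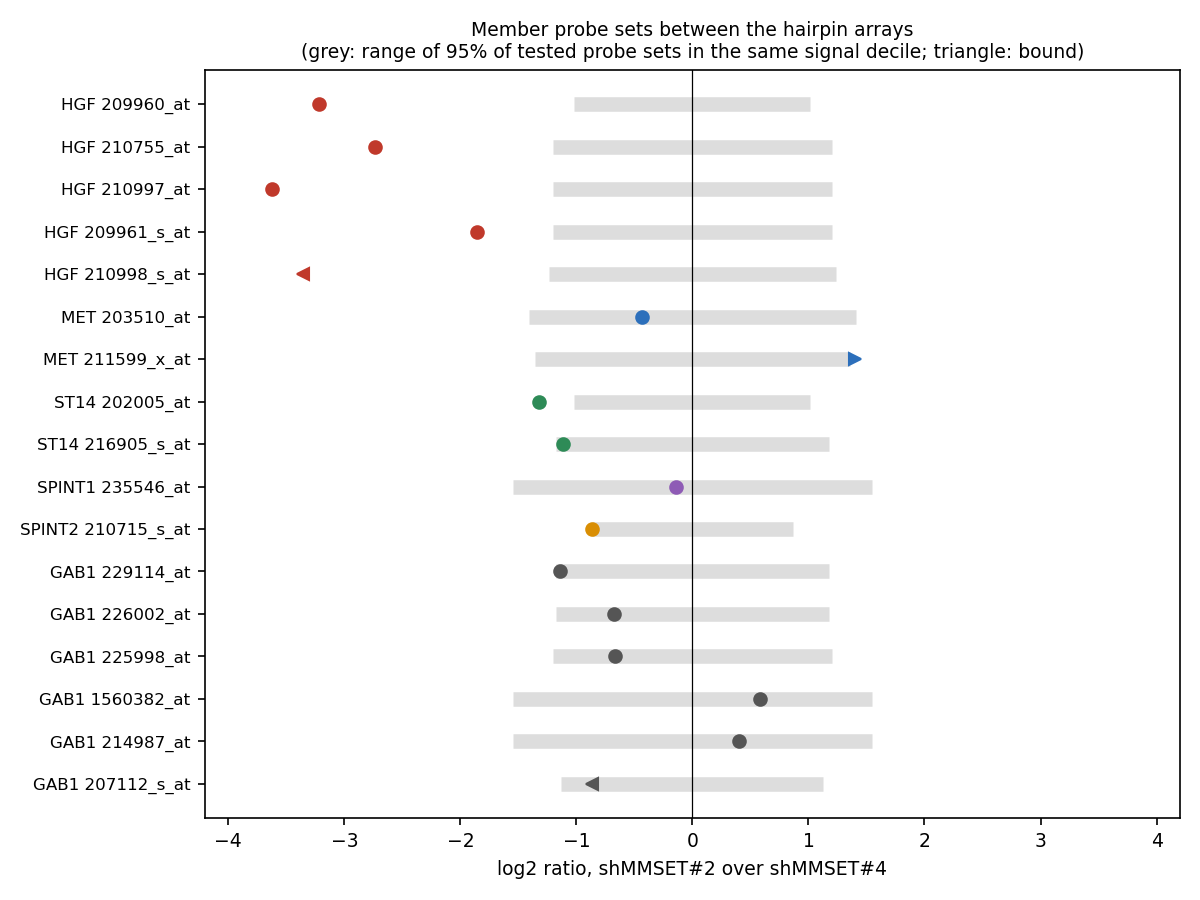
Log2 ratio of shMMSET#2 over shMMSET#4 for each tested member probe set, with grey bars for the range that holds 95% of tested probe sets in the same signal decile and triangles for bounds. The 5 HGF probe sets lie well outside their grey bars, with 9.28-fold for 209960_at, while 202005_at of ST14 (2.50-fold), 210715_s_at of SPINT2 (1.83-fold) and 211599_x_at of MET (at least 2.64-fold) lie just outside theirs. The MET probe set 211599_x_at passed the filter through shMMSET#2 alone, so its direction was fixed.

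The genes most like HGF were sought by the distance between their pairs of log2 ratios, over 3 arrays and 11638 candidate genes whose brightest probe set was above the floor on all arrays. The nearest was CDH1, which encodes E-cadherin and is one of the epithelial markers above, with signals of 50.04 with shMMSET#2, 340 with shMMSET#4 and 595 with shLuc, at a distance of 0.53. TRAT1, an adaptor of T cell receptor signalling, had 56.6 with shMMSET#2, 242 with shMMSET#4 and 548 with shLuc, at a distance of 0.87. MUC1, a transmembrane mucin found on epithelia and plasma cells, had 285 with shMMSET#2, 1280 with shMMSET#4 and 2678 with shLuc, at a distance of 0.88. Set against shLuc, CDH1 was 11.9-fold lower with shMMSET#2 and 1.75-fold with shMMSET#4, TRAT1 9.69-fold and 2.26-fold, and MUC1 9.41-fold and 2.09-fold. The genes most like MET, TUBA4A, HIPK1 and SAMM50, lay within 0.03 of it, since many genes have log2 ratios of that size.

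Of 144 other genes of the HGF-MET system and its surroundings, 126 were named on the array and 100 were tested, each by its brightest probe set. With both hairpins 7 of the 100 were at least 2-fold lower than shLuc, against 4.35% of all 13296 tested genes, and 6 were at least 2-fold higher, against 2.83%. With shMMSET#2, 16 were lower (10.7% of all tested genes) and 8 higher (5.69%), and with shMMSET#4, 16 were lower (8.95%) and 12 higher (6.74%). Their median log2 ratios were -0.17 with shMMSET#2 and -0.05 with shMMSET#4, beside -0.04 and -0.02 for all tested genes. As with the members, genes that passed the filter through 1 bright array were bound to differ. Of the 7 lower with both hairpins, KLK4, NRP1, GAB2 and FLT1 passed it through shLuc alone. The direction of these genes was therefore fixed by the filter.

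Among the HGF paralog MST1 and the serine proteases that activate HGF or are related to those that do, 7 of 16 genes were tested. With shMMSET#2, 4 of the 7 were at least 2-fold lower (10.7% of all tested genes) and none was higher (5.69%). With shMMSET#4, 2 were lower (8.95%) and 2 higher (6.74%). The same shares stand beside the counts of the lists that follow. MST1, which encodes macrophage-stimulating protein, had signals of 328 with shMMSET#2, 290 with shMMSET#4 and 686 with shLuc. Its probe set is of the type that can hybridise to near-identical copies, so the value is uncertain. KLK4, a kallikrein-related protease, had 43.7 with shMMSET#2, 34.6 with shMMSET#4 and 118 with shLuc, and was 2.71-fold and at least 2.87-fold lower. The other 2 lower with shMMSET#2, chosen after their values were seen, were HPN (hepsin), at 2.08-fold, and TMPRSS6, at least 2.79-fold, and their shLuc signals were 122 and 115. The 2 higher with shMMSET#4, chosen in the same way, were F12, which encodes coagulation factor XII, with 170 with shMMSET#2, 295 with shMMSET#4 and 122 with shLuc, and TMPRSS2, at least 2.15-fold higher. The other tested TMPRSS2 probe set ranked the hairpins otherwise, with log2 ratios of 1.35 with shMMSET#2 and 0 with shMMSET#4. Of the serpins, SERPINE2 alone was tested, with 1494 with shMMSET#2, 3481 with shMMSET#4 and 1555 with shLuc.

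Heparan sulphate genes and MET co-receptors included SULF2, whose log2 ratio with shMMSET#2 was the furthest from 0 among the tested genes of these lists. Of 21 genes 17 were tested, with 4 lower and 1 higher with shMMSET#2, 2 lower and 2 higher with shMMSET#4, and medians of -0.70 and -0.19. SULF2, an extracellular enzyme that removes sulphate groups from heparan sulphate, chosen after its values were seen, had signals of 597 with shMMSET#2, 4382 with shMMSET#4 and 5291 with shLuc. Its 2 probe sets gave log2 ratios of -3.15 and -2.89 with shMMSET#2, and -0.27 and -0.65 with shMMSET#4. Like HGF, it was low on the shMMSET#2 array and closer to shLuc on the shMMSET#4 array. EXT1, a polymerase of the heparan sulphate chain also chosen afterwards, was 2.26-fold lower with shMMSET#2 and 1.02-fold higher with shMMSET#4 on its brightest probe set. Its other tested probe set gave log2 ratios of -0.62 with shMMSET#2 and -1.01 with shMMSET#4, so the hairpins ranked otherwise there. HS6ST1, a sulphotransferase, likewise chosen, was 1.43-fold and 2.42-fold higher.

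HPSE, which encodes heparanase, was lower with both hairpins, with 245 with shMMSET#2, 276 with shMMSET#4 and 678 with shLuc. GLCE, the epimerase of heparan sulphate synthesis, was higher with both, with 770 with shMMSET#2, 835 with shMMSET#4 and 209 with shLuc. NRP1, a co-receptor of several growth factors, was at or under the floor with both hairpins and had 88.9 with shLuc, so it was at least 2.16-fold lower with each. SDC1, the syndecan that binds HGF on plasma cells, had 3338 with shMMSET#2, 3646 with shMMSET#4 and 4166 with shLuc, with log2 ratios of -0.32 and -0.19 over shLuc.

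Of 22 tested adaptors and signalling proteins downstream of MET, 3 were lower and 2 higher with shMMSET#2, and 1 was lower and 1 higher with shMMSET#4. GAB2, a paralog of GAB1, had a signal of 103 with shLuc and was under the floor with both hairpins, at least 2.49-fold lower. MAP2K1, the kinase that activates ERK, had 2843 with shMMSET#2, 2847 with shMMSET#4 and 860 with shLuc, or 3.31-fold higher with each. The others past 2-fold with shMMSET#2, chosen after their values were seen, were the RAS exchange factor gene SOS2 (3.39-fold lower), the ERK gene MAPK3 (2.01-fold lower) and the phospholipase gene PLCG1 (2.40-fold higher). With shMMSET#4 these were 1.32-fold lower, 1.24-fold lower and 1.65-fold higher.

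Of 15 tested brakes on MET signalling, none was lower and 2 were higher with shMMSET#2, and 2 were lower and 1 higher with shMMSET#4. SPRED1, an inhibitor of RAS-ERK signalling, was the 1 brake higher with both, with 1428 with shMMSET#2, 995 with shMMSET#4 and 249 with shLuc. The others past 2-fold, chosen afterwards, were SPRY2, at least 3.39-fold higher with shMMSET#2, CBLB, 2.33-fold lower with shMMSET#4, and SOCS1, at least 2.39-fold lower with shMMSET#4. The 2 tested SOCS1 probe sets went opposite ways, with log2 ratios of -0.93 and 1.09 with shMMSET#2 and of -1.26 and 0.25 with shMMSET#4. Of 10 tested ERK-responsive genes, none was lower and 2 were higher with shMMSET#2, and 1 was lower and 3 higher with shMMSET#4. DUSP6, an ERK phosphatase, had 373 with shMMSET#2, 543 with shMMSET#4 and 144 with shLuc, and ETV5, an ETS factor, had 186 with shMMSET#2, 380 with shMMSET#4 and was under the floor with shLuc. The others past 2-fold, chosen after their values were seen, were IER3, 2.01-fold lower with shMMSET#4, and CCND1 (cyclin D1), 3.33-fold higher with shMMSET#4.

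Among 13 tested receptor tyrosine kinase genes other than MET, 2 were lower with shMMSET#2 and 4 with shMMSET#4, and 1 was higher, with shMMSET#4. FLT1, a receptor for vascular endothelial growth factor, was the 1 gene lower with both, with 21.0 with shMMSET#2, 55.4 with shMMSET#4 and 152 with shLuc. MST1R, the closest relative of MET, had 57.01 with shMMSET#2, 47.3 with shMMSET#4 and 99.2 with shLuc, or log2 ratios of -0.80 and -1.07, and was chosen after its values were seen. So were DDR2, 2.00-fold lower with shMMSET#2, FGFR1 and IGF1R, 2.29-fold and 2.20-fold lower with shMMSET#4, and TYRO3, 2.19-fold higher with shMMSET#4. Among 15 tested growth factors and cytokines of the myeloma marrow, 3 were lower and 1 higher with shMMSET#2, and 4 were lower and 1 higher with shMMSET#4. FGF2, basic fibroblast growth factor, was higher with both, with 633 with shMMSET#2, 432 with shMMSET#4 and 142 with shLuc. DKK1, a secreted inhibitor of Wnt signalling and of bone formation, was lower with both, with 84.9 with shMMSET#2, 55.2 with shMMSET#4 and 193 with shLuc. IGF1, a myeloma growth factor chosen after its values were seen, had 740 with shMMSET#2, 1733 with shMMSET#4 and 2196 with shLuc, and its 4 tested probe sets gave log2 ratios of -1.57 to -1.07 with shMMSET#2 and -0.39 to -0.09 with shMMSET#4. The rest, chosen in the same way, were VEGFA, 2.03-fold lower with shMMSET#2, and IL6, ANGPT1 and IL1B, at least 2.07-fold, 2.43-fold and 2.43-fold lower with shMMSET#4.

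These gene values rest on the brightest probe set. Of the 45 genes past 2-fold in these lists or nearest to HGF or MET, 22 had more than 1 tested probe set. Their probe sets differed in sign with shMMSET#4 for 8 (EXT1, SOS2, SOCS1, ETV5, FGFR1, DDR2, VEGFA and HIPK1) and with shMMSET#2 for 2 (SOCS1 and HIPK1). The log2 ratios with shMMSET#4 ran from -1.20 to 0.61 for FGFR1, from -0.69 to 0.89 for VEGFA and from -0.09 to 3.20 for ETV5. MUC1 was lower on its 3 tested probe sets with shMMSET#2, at log2 ratios of -3.52 to -0.59. Some genes past 2-fold with both hairpins fell short of it on another probe set. With shMMSET#4 the log2 ratios ran from 0.32 to 2.28 for DUSP6 and from -1.24 to -0.22 for MST1. With shMMSET#2 they ran from 0.73 to 2.15 for FGF2.

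**Figure D4:**
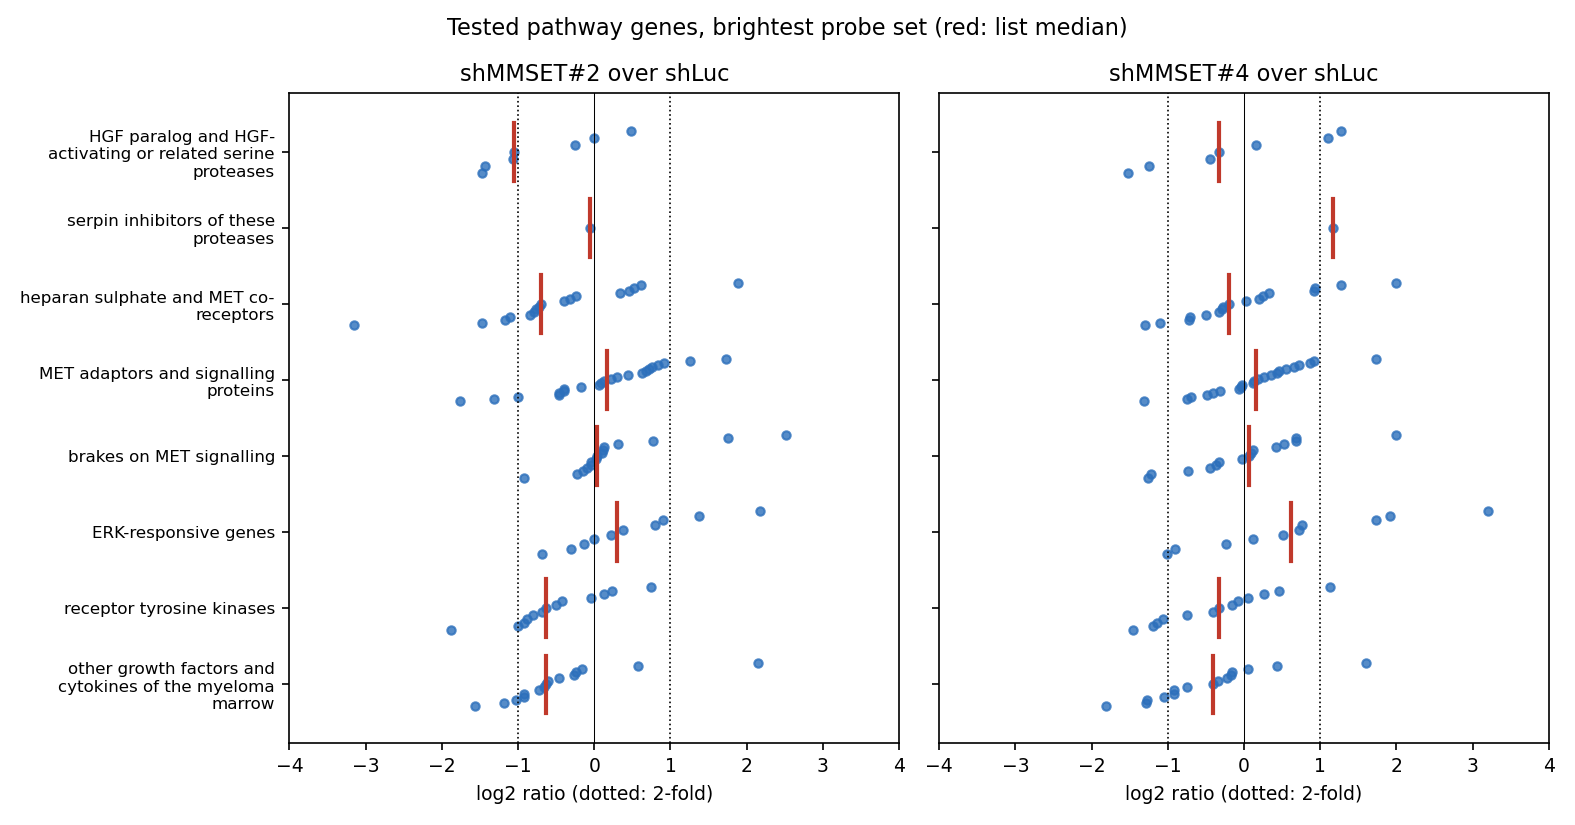
Log2 ratio over shLuc of the tested genes of each pathway list (points, brightest probe set, the height within a row without meaning) with the list median in red, for shMMSET#2 and shMMSET#4. The leftmost point in the heparan sulphate row with shMMSET#2 is SULF2 at -3.15, and the rightmost point of the ERK-responsive row with shMMSET#4 is ETV5 at 3.20.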

How the data were processed

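The authors deposited linear intensities, 1 for each probe set, made with MAS5 per the submitters' processing notes. The design text adds GeneSpring, and versions and settings are not given in the sources used here. That text names a smaller array than the one whose annotation fits the 54675 identifiers, and the annotation of the larger array was used. The 2% trimmed mean was 500.1 on each array, so the signals were already scaled and were used as deposited. This scaling assumes that most signal is alike, and ratios of dim probe sets are noisy.

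Control probe sets (62) were left out. Symbols came from the platform annotation and were updated by Entrez identifier against RefSeq (GRCh38.p14). The floor was set at the 40th percentile of the pooled signals, and the filter was each array's median. For each gene the probe set of highest mean signal was taken. The genes to be named were every member, NSD2, up to 4 genes per list past 2-fold with both hairpins (or up to 2 with 1 hairpin where there were none), the markers, and the 3 genes nearest to HGF or to another member past 2-fold. The members and lists were chosen with earlier results of these data known. Python 3.11.15, numpy 2.4.6, pandas 2.3.3, scipy 1.17.1, matplotlib 3.10.9, R 4.3.3 and limma 3.58.1 were used, and the steps were tested on simulated data. The alternatives were other scalings, floors, filters, thresholds and probe set choices, and limma.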

Additional observations from a re-analysis of the deposited data

Results flagged for a closer look

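On 2 member probe sets the hairpins lay at least 1.5-fold from shLuc in opposite directions, and the difference was not tested, since each group is 1 array. For HGF 210997_at the log2 ratio over shLuc was -2.72 with shMMSET#2 and 0.91 with shMMSET#4. For ST14 202005_at it was -0.68 with shMMSET#2 and 0.65 with shMMSET#4.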

How the results depend on the processing

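HGF on 209960_at stayed past 2-fold lower with shMMSET#2, against both shLuc and shMMSET#4, and short of 2-fold with shMMSET#4 under the 2 other scalings and the 2 other floors tried. HGF 210997_at, by contrast, passed 2-fold higher with shMMSET#4 with the same median signal, at a log2 ratio of 1.29 over shLuc. Of 66 member log2 ratios, none past 2-fold turned sign, and 3 short of it did so with the same median signal and 2 with quantile normalization. Counts are given for member probe sets first, with the share of all tested probe sets (of all tested genes, for pathway genes) under the same setting in brackets. With the same median signal 4 were higher with shMMSET#4 (12.6%), and pathway genes past 2-fold with both hairpins became 3 lower (1.72%) and 12 higher (6.97%), so the background moved the same way. Without a floor 2 member probe sets were lower with shMMSET#4 (15.4%). With a floor at the 60th percentile 0 were lower with shMMSET#4 (5.32%), higher with it (3.35%) or lower with both (2.02%), and 2 pathway genes were lower with both (1.62%). With a filter at the 75th these were likewise 0 (6.89%), 0 (5.86%), 0 (2.51%) and 2 (1.85%). At 1.5-fold, 10 were lower (25.5%) and 1 higher (15.7%) with shMMSET#2, 4 lower (27.1%) and 5 higher (15.0%) with shMMSET#4, 3 lower (15.7%) and 1 higher (7.52%) with both, and pathway genes numbered 17 lower (11.9%) and 13 higher (8.60%). At 3-fold, 0 members were higher with shMMSET#4 (1.27%) and 0 pathway genes were lower with both (0.782%). When a gene's probe sets were averaged, 3 pathway genes were lower with both (2.49%). Of 520 other counts of pathway genes under all these settings, most of them by list, 350 were the same, so the list counts depend on the processing. The causes were not tested. The stricter filter left 15351 probe sets tested, whereas the higher floor left all 31527. With the hairpins taken as 2 samples against 1 in limma, the log2 ratio was -1.92 for 1560382_at of GAB1 and -2.48 for HGF 209960_at. That fit treats the gap between the hairpins as error and has 1 shLuc array. It therefore cannot decide on a gene such as HGF, which differed between the hairpins. No paired analysis was possible because each group has 1 array. Values near the floor limit what MET and SPINT1 can show.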
